A study of Mus musculus with 12 samples.

Results

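The 9 genes described here encode receptors of the tumour necrosis factor (TNF) receptor superfamily that T cells are known to carry: Tnfrsf18 (GITR), Tnfrsf4 (OX40), Tnfrsf9 (also called CD137), Tnfrsf25 (DR3), Fas, Tnfrsf1a (TNFR1), Tnfrsf1b (TNFR2), Tnfrsf8 (CD30) and Cd27. They were chosen by name from a table of 55453 genes, of which 29806 had at least 1 read and 12411 had enough reads to be tested. All 9 were among the tested genes. TNF receptors are membrane proteins that bind trimeric ligands of the TNF family. Members without a death domain recruit TRAF adaptor proteins and switch on NF-kB transcription factors, while Fas, Tnfrsf1a and Tnfrsf25 carry an intracellular death domain. In regulatory T (Treg) cells, GITR, OX40 and TNFR2 are known as costimulatory receptors that help precursors in the thymus become mature Foxp3-positive cells.

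RNA was measured in Treg cells, CD4 T cells that depend on the transcription factor Foxp3 and keep other immune cells in check. The mice were labelled floxed or knockout for CNS4, an enhancer of Foxp3, the females as heterozygotes. All animals were C57BL/6 and the cells were sorted as CD4+Foxp3+ by flow cytometry and not treated afterwards. The 4 groups of 3 libraries were males labelled CNS4 floxed (wild type), numbered 1, 2 and 4, males labelled CNS4 knockout, females labelled CNS4 floxed heterozygotes and females labelled CNS4 knockout heterozygotes, the last 3 groups numbered 1 to 3. They are called FL and KO here. The labels state that ages were matched but give no age, name no driver of the deletion, and do not say which allele was in use in the sorted female cells, although Foxp3 lies on the X chromosome. The organ is given only by the letters Thy in the titles. Separate animals are not named for the libraries, so p-values here reflect library-to-library spread that may be technical.

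Each library held 12423335 to 30244505 reads in genes. Of the genes that define the sorted population, Foxp3 had 685 to 2675 CPM (reads scaled to a common library size), Il2ra 1904 to 3163, Ctla4 704 to 1759.5 and Cd3d 776 to 1218. Cd4, Cd3e and Ikzf2 had only 4.76 to 11.95, 20.4 to 36.03 and 3.27 to 8.45 CPM. These 3 genes lie on the minus strand of their chromosomes, and in every library 95.8 to 97.2% of the reads in protein-coding genes fell in genes of the plus strand. Foxp3 was lower in every KO library than in every FL library of the same sex, which held for 1.78% of tested genes. It was at 2227 to 2675 CPM in male FL, 1462 to 2037 in male KO and 2582 to 2658 in female FL. In female KO libraries 1, 2 and 3 it was at 685, 1824 and 825 CPM. The difference over both sexes was -0.86 ± 0.22 (log2, SE), with an adjusted p of 0.06 (edgeR quasi-likelihood test, Benjamini-Hochberg), and -0.50 ± 0.10 without female KO libraries 1 and 3, with an adjusted p of 0.0959. Without female KO library 2 it was -1.13 ± 0.10, with an adjusted p of 0.00117. Female KO libraries 1 and 3 stood apart from the other 10 libraries in several of the receptor genes too, so differences in females are also given without them where they move the value.

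The strand divides the receptor genes. Tnfrsf4, Tnfrsf18, Tnfrsf9, Tnfrsf25, Fas and Tnfrsf1a are on the plus strand, and Tnfrsf1b, Tnfrsf8 and Cd27 are on the minus strand, where counts were low for nearly all genes. Levels are therefore compared only within a strand, except in a share of summed reads that is marked as such. Whether the few reads of the minus-strand genes came from their own transcripts was not tested. Of the 9 genes, 6 lie on chromosome 4, Tnfrsf1a and Cd27 lie on chromosome 6, and Fas on chromosome 19. The exons of Tnfrsf18 share 414 bases with Gm16008, a gene of the opposite strand that had 8 to 57 reads in a library, against at least 21603 for Tnfrsf18.

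The stretches before the RefSeq start sites of 5 receptor genes are shown because the results turn on these genes: the 3 most abundant ones, the one that was low in part of the female KO libraries, and the one that passed the test. They come from RefSeq's GRCm38.p6 assembly, a later build than the mm9 on which reads were counted, and read 5′ to 3′ on the gene's strand, without any exon bases. Capitals mark matches to 3 motifs searched on both strands: the NF-kB consensus GGGRNWYYCC, the AP-1 motif TGANTCA and the STAT motif TTCNNNGAA. Here R is A or G, W is A or T, Y is C or T, and N is any base. The Tnfrsf4 stretch is chr4:156013611-156013694 (plus strand), that of Tnfrsf18 is chr4:156026072-156026163 (plus), that of Tnfrsf9 is chr4:150919905-150920154 (plus), that of Tnfrsf25 is chr4:152115684-152115933 (plus) and that of Tnfrsf8 is chr4:145315165-145315414 (minus).
Tnfrsf4: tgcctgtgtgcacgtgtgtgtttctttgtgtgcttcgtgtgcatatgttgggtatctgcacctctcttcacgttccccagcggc
Tnfrsf18: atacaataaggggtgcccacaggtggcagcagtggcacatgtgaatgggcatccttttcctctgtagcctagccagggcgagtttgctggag
Tnfrsf9: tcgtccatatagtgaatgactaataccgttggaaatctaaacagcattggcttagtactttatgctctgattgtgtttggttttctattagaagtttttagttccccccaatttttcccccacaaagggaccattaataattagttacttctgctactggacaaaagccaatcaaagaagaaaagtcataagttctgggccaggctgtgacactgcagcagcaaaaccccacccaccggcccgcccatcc
Tnfrsf25: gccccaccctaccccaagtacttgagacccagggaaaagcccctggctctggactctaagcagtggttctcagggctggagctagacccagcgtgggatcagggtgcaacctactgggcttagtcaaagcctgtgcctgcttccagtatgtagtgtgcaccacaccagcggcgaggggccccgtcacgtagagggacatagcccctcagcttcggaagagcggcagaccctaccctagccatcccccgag
Tnfrsf8: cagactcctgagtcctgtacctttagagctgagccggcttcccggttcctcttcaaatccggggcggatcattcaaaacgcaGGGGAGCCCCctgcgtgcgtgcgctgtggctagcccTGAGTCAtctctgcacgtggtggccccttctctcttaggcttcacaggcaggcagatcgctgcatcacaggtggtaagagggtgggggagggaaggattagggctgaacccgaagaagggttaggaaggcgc
The Tnfrsf18 stretch ends 158 bases before the start, and the bases after it are not shown. Among these 5 stretches that of Tnfrsf8 alone held a match, to NF-kB at the letters GGGGAGCCCC and to AP-1 at the letters TGAGTCA. The NF-kB match lay on the opposite strand of these letters alone, the AP-1 match on both strands. That Tnfrsf8 alone held a match depends on which stretches are shown. Stretches before a second start of Tnfrsf9 and of Tnfrsf25, not shown, each held a STAT match. A STAT match of Tnfrsf18 lay in the bases not shown. RefSeq lists 11 windows, from 250 bases before a start into the first bases of the transcript, for the 9 genes, since some have several start sites. The NF-kB consensus was found in 3.90% of all 32851 windows of this kind and in 2 of the 11, in Tnfrsf8 and at a second start of Tnfrsf9. AP-1 was found in 6.75% of all windows and in 3 of the 11, in Fas, Tnfrsf8 and Tnfrsf9. STAT was found in 7.02% of all windows and in 6 of the 11, in Fas, Tnfrsf18, Tnfrsf1a, Tnfrsf1b, Tnfrsf25 and Tnfrsf9. The NF-kB and AP-1 matches of Tnfrsf8 did not overlap each other. These matches describe the letters of the windows and do not show binding.

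The transcripts of OX40, GITR and CD137, costimulatory receptors without a death domain, were among the most abundant of plus-strand protein-coding genes in these cells. Over the 12 libraries Tnfrsf4 averaged 1573 CPM per kilobase of exon, Tnfrsf18 1175 and Tnfrsf9 523. These levels placed Tnfrsf4 at rank 7, Tnfrsf18 at rank 9 and Tnfrsf9 at rank 36 among 10875 such genes. Tnfrsf25, the receptor for the ligand TL1A, ranked 229, at 157 CPM per kilobase. Fas, the death receptor that removes activated lymphocytes, ranked 299, at 133, and Tnfrsf1a, the widely expressed receptor for TNF, ranked 1719, at 30.5.

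The order of levels per kilobase was Tnfrsf4, Tnfrsf18, Tnfrsf9, Tnfrsf25, Fas and Tnfrsf1a in male FL, male KO and female FL. Neighbours in this order did not overlap between libraries, except Tnfrsf25 and Fas in female FL, at 171 ± 27.5 and 152 ± 3.19 CPM per kilobase (SD, n = 3). In female KO the order of these 2 genes was the other way round, with Fas at 140 ± 21.04 and Tnfrsf25 at 85.3 ± 74.4, and their ranges overlapped. The ranges of Tnfrsf4 and Tnfrsf18 overlapped in female KO as well, at 1819.5 ± 321 and 1332 ± 232. Among the minus-strand genes Tnfrsf1b was above Cd27, and Cd27 above Tnfrsf8, in each group. The ranges of the last 2 overlapped in male KO, at 0.395 ± 0.233 and 0.226 ± 0.0521 CPM per kilobase.

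**Figure D1:**
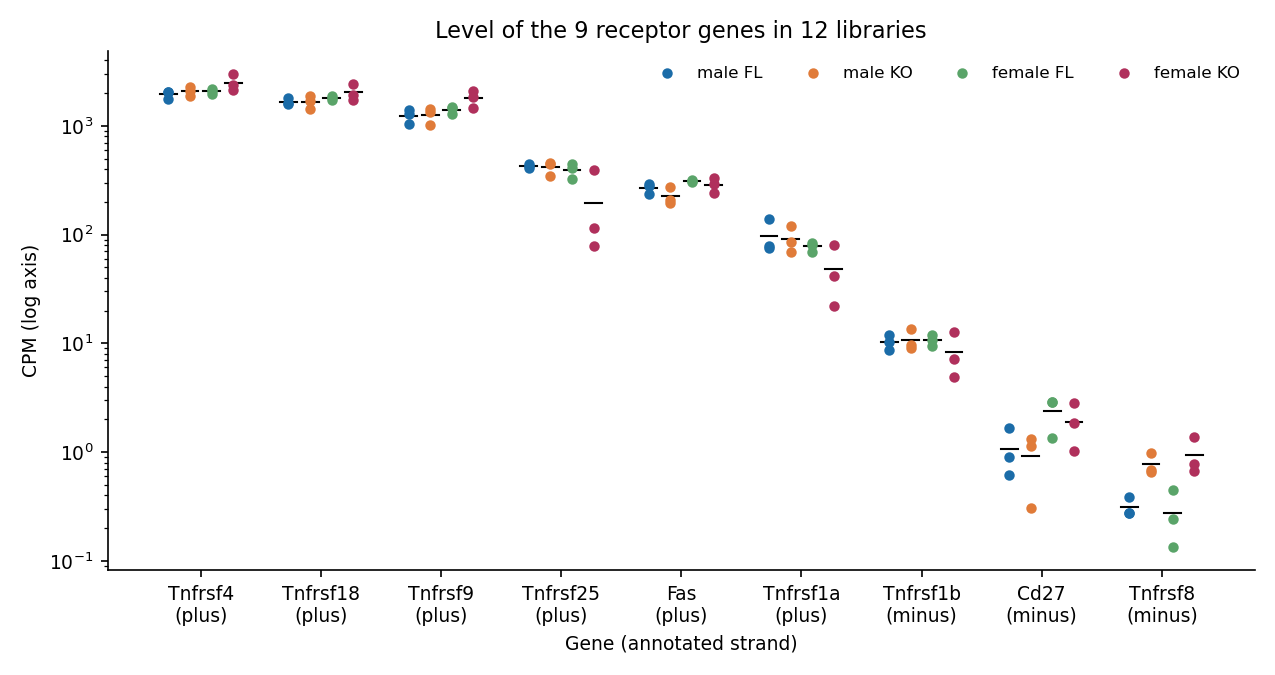
CPM on a log axis for each of the 9 receptor genes, with 1 point per library, a black bar at the mean of each group of 3, and the annotated strand under the gene name. Of the plus-strand genes, Tnfrsf4, Tnfrsf18 and Tnfrsf9 lie above 1000 CPM in all 12 libraries, and Tnfrsf25 and Tnfrsf1a spread most in female KO.

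Most of these receptor transcripts showed no difference between the genotypes that passed the test. Over both sexes 1 of the 9 genes, Tnfrsf8, was higher in KO and none was lower, where 3.31% of the 12411 tested genes passed, 2.68% with higher and 0.637% with lower levels in KO. In males 0 of the 9 receptor genes passed, where 0.0242% of all tested genes did, and in females 0 passed, where 0.201% did. The female share was 0.185% for higher and 0.0161% for lower levels in KO. At an unadjusted p under 0.05 the shares were 8.12% in males, 19.2% in females and 20.2% over both sexes, and Tnfrsf8 was the only receptor gene under it in each of these. DESeq2 called 0 of them in each sex as well, where it called 2.33% of the genes with an adjusted p in males and 6.76% in females, though it gave Tnfrsf8 in females no adjusted p. The edgeR test of the female minus male difference called 0% of the 12411 genes, with 2.73% at an unadjusted p under 0.05, and none of the 9 was among these. The median difference of the 9 genes was 0.00 (log2) in males and -0.12 in females, against 0.01 and -0.02 over all tested genes. A missed threshold does not show that levels were equal. As fitted without the GC content and length correction, the 95% intervals over both sexes reached from -0.13 to 0.30 for Tnfrsf18, from -0.02 to 0.39 for Tnfrsf4 and from -0.08 to 0.46 for Tnfrsf9.

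**Figure D2:**
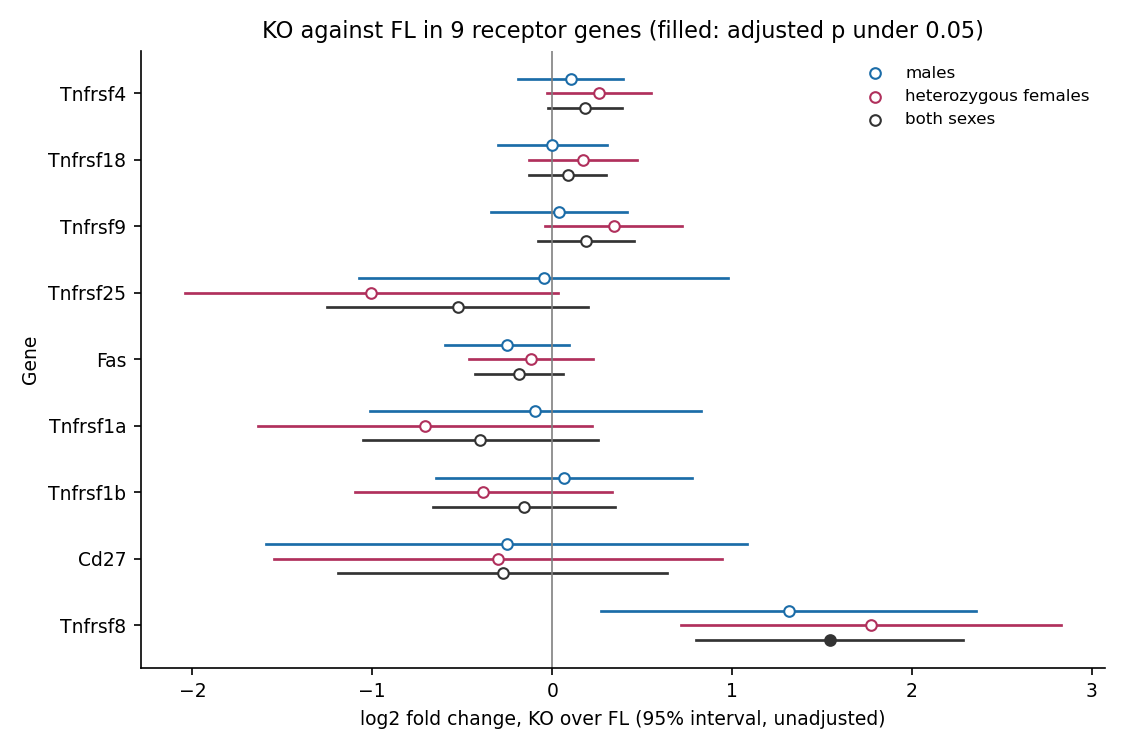
KO over FL log2 fold change of the 9 receptor genes with unadjusted 95% intervals (x axis), in males, in heterozygous females and over both sexes; a filled point has an adjusted p under 0.05. Only Tnfrsf8 over both sexes is filled, and the intervals of Tnfrsf4, Tnfrsf18, Tnfrsf9 and Fas are the narrowest.

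Tnfrsf4, whose product OX40 binds OX40 ligand on antigen-presenting cells, was counted at 1759, 2042 and 2033 CPM in male FL libraries 1, 2 and 4, and at 2265, 1887 and 2109 in male KO libraries 1 to 3. In females it was at 2096, 1943 and 2182 in FL and at 2973, 2126 and 2352 in KO. The genotypes overlapped in both sexes, with the highest value in female KO library 1. The KO minus FL difference was 0.10 ± 0.13 (log2, SE) in males and 0.26 ± 0.13 in females, and 0.18 ± 0.09 over both sexes, with a 95% interval of -0.02 to 0.39 and an adjusted p of 0.298. With a trend on GC content and exon length removed from each library, the female difference was 0.64 ± 0.23 (adjusted p 0.179) and that over both sexes 0.39 ± 0.16 (adjusted p 0.205).

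Tnfrsf18, which encodes the Treg surface marker GITR, was counted at 1619.8, 1791 and 1584 CPM in male FL and at 1864, 1429 and 1705.5 in male KO. In females the values were 1804, 1729.7 and 1875 in FL and 2425, 1744 and 1920.5 in KO. Male KO libraries lay on both sides of the male FL libraries, and in females the genotypes overlapped, with KO library 1 again highest. The difference was 0.00 ± 0.14 (log2, SE) in males and 0.17 ± 0.14 in females, with 95% intervals of -0.30 to 0.30 and -0.13 to 0.47. The adjusted p-values were 1 and 0.477. With the GC content and length trend removed, the female difference was 0.64 ± 0.26 (adjusted p 0.204), above that interval, and the difference over both sexes was 0.34 ± 0.18 (adjusted p 0.305).

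Tnfrsf9, whose product CD137 appears on T cells after stimulation of the T cell receptor, stood at 1284, 1387 and 1029.8 CPM in male FL and at 1442, 1012 and 1342 in male KO. In females it stood at 1279.5, 1483 and 1468.5 in FL and at 2075, 1461.5 and 1823 in KO. Female KO libraries 1 and 3 were above all other libraries, while KO library 2 lay within the female FL range. The difference was 0.04 ± 0.17 (log2, SE) in males and 0.34 ± 0.17 in females, with an adjusted p of 0.293 in females. None of these 3 genes passed the test in any of the 4 comparisons.

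These 3 genes made up 84.9 to 94.5% of the summed CPM of the 9 receptors in a library. That total includes the minus-strand genes, whose low counts may not reflect their transcripts, so the share describes reads alone. The sum of Tnfrsf4, Tnfrsf18 and Tnfrsf9 was highest in female KO library 1, at 7473 CPM, against 4328 to 6095 in the other 11 libraries. The ratio of Tnfrsf4 to Tnfrsf18 ran from 1.09 to 1.32 over the 12 libraries, at 1.12 to 1.16 in female FL and 1.22 to 1.23 in female KO. Both groups of females lay within the range of the male libraries. Without female KO libraries 1 and 3 the female difference was 0.04 for Tnfrsf4, -0.04 for Tnfrsf18 and 0.05 for Tnfrsf9, so that KO library 2 stood close to the FL mean in all 3.

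**Figure D3:**
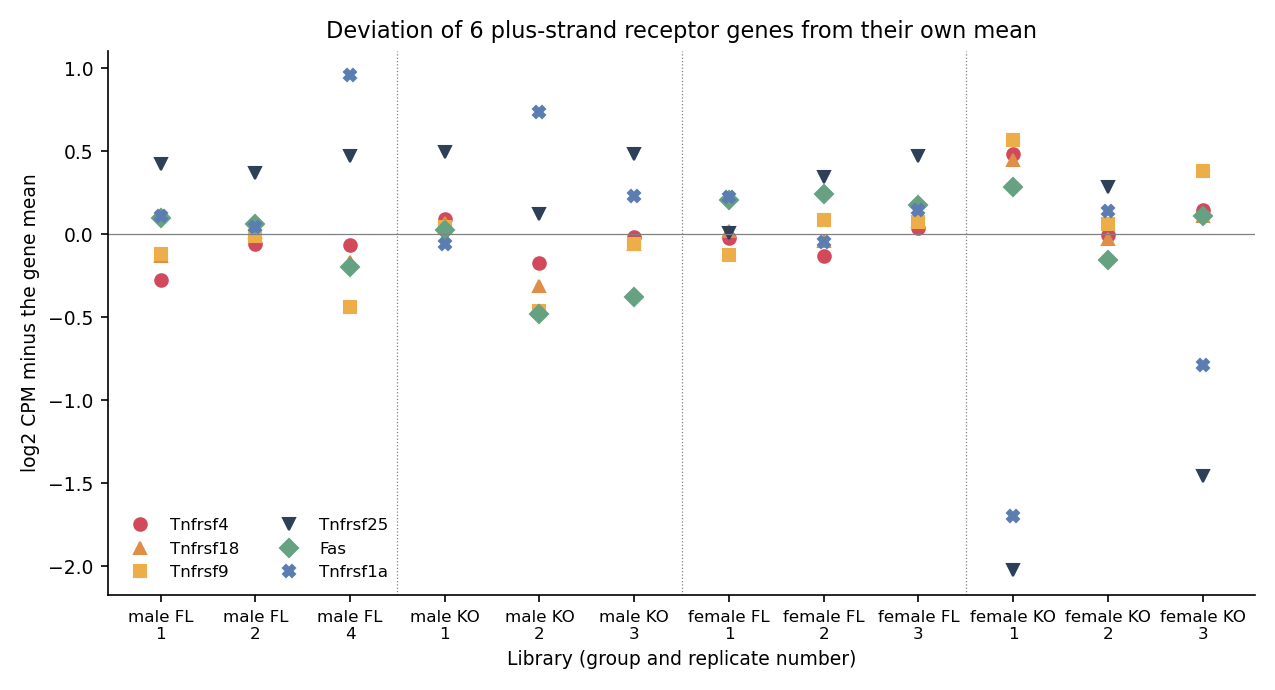
For each library (x axis, group and replicate number) the log2 CPM of 6 plus-strand receptor genes minus the gene's mean over the 12 libraries. Female KO libraries 1 and 3 have Tnfrsf25 and Tnfrsf1a far below 0 while Tnfrsf4, Tnfrsf18, Tnfrsf9 and Fas are above 0, and Tnfrsf1a is above 0.5 in male FL library 4 and male KO library 2.

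Tnfrsf25, which encodes the death domain receptor DR3, was the receptor gene whose female KO libraries differed most from each other among those on the plus strand. It was counted at 428, 413 and 443 CPM in male FL and at 451, 347 and 446 in male KO. In females it was counted at 321, 405 and 443 CPM in FL, and at 78.3, 389 and 116 in KO libraries 1, 2 and 3. KO libraries 1 and 3 were below every other library, and KO library 2 lay within the FL range, so the female genotypes overlapped. The female difference was -1.01 ± 0.47 (log2, SE), with a 95% interval of -2.04 to 0.03 and an adjusted p of 0.271. In males it was -0.05 ± 0.46, with an interval of -1.07 to 0.98. The female minus male difference was -0.96 ± 0.66, with an adjusted p of 0.892.

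The value of Tnfrsf25 in females depended on which KO libraries were kept. It was -1.99 ± 0.20 (log2, SE) without KO library 2, with an adjusted p of 5.7e-04, and -0.0035 ± 0.20 without KO libraries 1 and 3, with an adjusted p of 1. Without KO library 2, 23.7% of 13029 tested genes passed the test in females, 16.5% with lower and 7.18% with higher levels in KO. Among the receptor genes, Tnfrsf25, Tnfrsf1a and Tnfrsf1b then passed as lower and Tnfrsf8 as higher. Over both sexes without that library, Tnfrsf25 passed as lower (-1.02 ± 0.13), as did 14.3% of genes, and Tnfrsf8 as higher, as did 8.25%. Female KO libraries 1 and 3 had 685 and 825 CPM of Foxp3, against 1824 in KO library 2. Mitochondrially encoded genes took 4.04 and 3.40% of their gene reads, against 2.77% in KO library 2 and 2.27 to 2.64% in female FL. Across genes, a library's deviation from the mean of all libraries was set against GC content. The Spearman correlation was -0.355 and -0.257 in female KO libraries 1 and 3, -0.0995 in KO library 2 and -0.0878 to 0.112 in female FL. Male libraries reached similar sizes with the other sign, at 0.129 to 0.35 in male FL and -0.0778 to 0.314 in male KO. Tnfrsf25 had the highest exon GC content of the 9 genes, 59.4%. Tnfrsf1a had 55.9%, Tnfrsf18 55.7% and Tnfrsf4 54.9%. The part of GC content in their values was not tested. With a trend on GC content and exon length removed from each library, the female difference of Tnfrsf25 was -0.56 ± 0.26, with an adjusted p of 0.254. The genotype and these properties of the female KO libraries cannot be told apart.

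The ratio of Tnfrsf25 to Tnfrsf18 was 0.0323 and 0.0603 in female KO libraries 1 and 3 and 0.178 to 0.280 in the other 10. The genes whose pattern over the 12 libraries was most like that of Tnfrsf25, picked after its values had been seen, were Tmc8, Ppdpf and Dnm2. Their root mean square differences from Tnfrsf25 were 0.08, 0.09 and 0.10 in log2 CPM centred on each gene's mean. The spread of Tnfrsf25 itself around its mean was 0.80 on this scale. For Tnfrsf4, chosen in the same way, they were Eef1a1, Pef1 and Lcmt1, each at 0.06, with a spread of 0.18 for Tnfrsf4 itself.

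Tnfrsf1a, which carries a death domain and signals both NF-kB activation and cell death, was at 78.2, 74.7 and 141 CPM in male FL and at 69.5, 121 and 84.9 in male KO. In females it was at 84.6, 69.9 and 80.1 in FL and at 22.2, 79.8 and 41.9 in KO. Male FL library 4 and male KO library 2 were the 2 highest, and female KO libraries 1 and 3 the 2 lowest. The difference was -0.09 ± 0.42 (log2, SE) in males and -0.71 ± 0.42 in females, with adjusted p-values of 0.999 and 0.351. In females it was -1.28 ± 0.38 without KO library 2, with an adjusted p of 0.0368, and 0.03 ± 0.42 without KO libraries 1 and 3. With the GC content and length correction it was -0.40 ± 0.30.

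Male FL library 4 and male KO library 2 also held the most reads of myeloid and dendritic cell genes among male libraries. The 18 genes of that list summed to 1658.5 and 1794 CPM there, against 115 to 475 in the other 4 male libraries. In female FL libraries 1, 2 and 3 they summed to 1225, 304 and 652 CPM, in the order of the Tnfrsf1a values. In female KO libraries 1, 2 and 3 they summed to 849, 1079 and 1679.9 CPM. There the order was not that of Tnfrsf1a, which was at 41.9 CPM in library 3. Of the 18 genes, 12 were tested and none passed in any comparison, with medians of 0.34 (log2) in males and 1.04 in females. Of the plus-strand genes of the list, Adgre1 had up to 7073 reads in a library, and of its minus-strand genes, Cd68, Fcgr1, Xcr1 and Cd14 had 0 in 6 to 10 libraries. Without male FL library 4 and male KO library 2, the male difference of Tnfrsf1a was 0.02. Myeloid cells are known to express Tnfrsf1a, and in bulk RNA fewer cells of a type and less RNA per cell cannot be told apart. The part of these reads in the Tnfrsf1a values was not tested.

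The remaining marker lists cover other cells that a sort from thymus could hold. The 7 immature thymocyte genes summed to 201 to 396 CPM in male FL, 210 to 422 in male KO, 311 to 426 in female FL and 330 to 752 in female KO. Of these, 5 were tested and none passed. The 6 B cell genes summed to 15.1 to 59.1 CPM, almost all from Cd79a, with Pax5 and Blk at 0 in 11 libraries each. The 6 thymic epithelial genes summed to 3.26 to 52.5 CPM, with Krt5 and Foxn1 at 0 in all 12. The NK and erythroid genes summed to 5.63 to 35.4 CPM, with Klrb1c at 0 in all 12. The part of these cells in the receptor values was not tested.

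Fas, which binds Fas ligand, was counted at 289, 281.5 and 235 CPM in male FL and at 275, 194 and 208 in male KO. In females it was counted at 312, 319 and 306 in FL and at 329, 243 and 292 in KO. It was the plus-strand receptor gene with the smallest spread among female FL libraries, and the genotypes overlapped in both sexes. The difference was -0.25 ± 0.16 (log2, SE) in males, -0.12 ± 0.16 in females and -0.18 ± 0.11 over both, with a 95% interval of -0.43 to 0.06 and an adjusted p of 0.362. The female difference was -0.0043 ± 0.15 without KO library 2 and -0.36 ± 0.20 without KO libraries 1 and 3.

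Tnfrsf8 was the only one of the 9 genes to pass the test, and it did so in the comparison over both sexes alone. It encodes CD30, a receptor without a death domain that is known from activated lymphocytes. It had 4, 5 and 4 reads in male FL and 11, 10 and 26 in male KO. In females it had 2, 6 and 4 reads in FL and 23, 11 and 9 in KO. Every KO library was above every FL library of its sex, at 0.661 to 1.39 CPM against 0.135 to 0.453. The difference was 1.54 ± 0.34 (log2, SE) over both sexes, with a 95% interval of 0.80 to 2.28 and an adjusted p of 0.0341. Within males it was 1.31 ± 0.47 and within females 1.77 ± 0.48, with adjusted p-values of 0.42 and 0.119. The comparison over both sexes uses the same libraries as these 2, and the female minus male difference of 0.46 ± 0.68 did not pass.

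KO libraries lay above FL libraries without overlap in both sexes for 3.97% of tested genes, and the genotypes were apart in either direction for 14.3% of genes in males and 25% in females. The call of Tnfrsf8 rested on 2 to 26 reads per library of a minus-strand gene. It was kept in 5 of 19 alternatives and lost in 14, with adjusted p-values of 0.00679 to 0.227, while the difference stayed between 1.34 and 1.78. Leaving out any 1 library ended it except male KO library 3 or female KO library 2, and without female KO libraries 1 and 3 the adjusted p was 0.227. With at least 5 CPM required, or with plus-strand genes alone, Tnfrsf8 was not among the genes tested. The genes nearest to it in pattern were Ptpn13, Pvrig and Cep112, at root mean square differences of 0.24, 0.25 and 0.26 in centred log2 CPM. Tnfrsf8 itself spread by 0.71 around its mean.

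**Figure D4:**
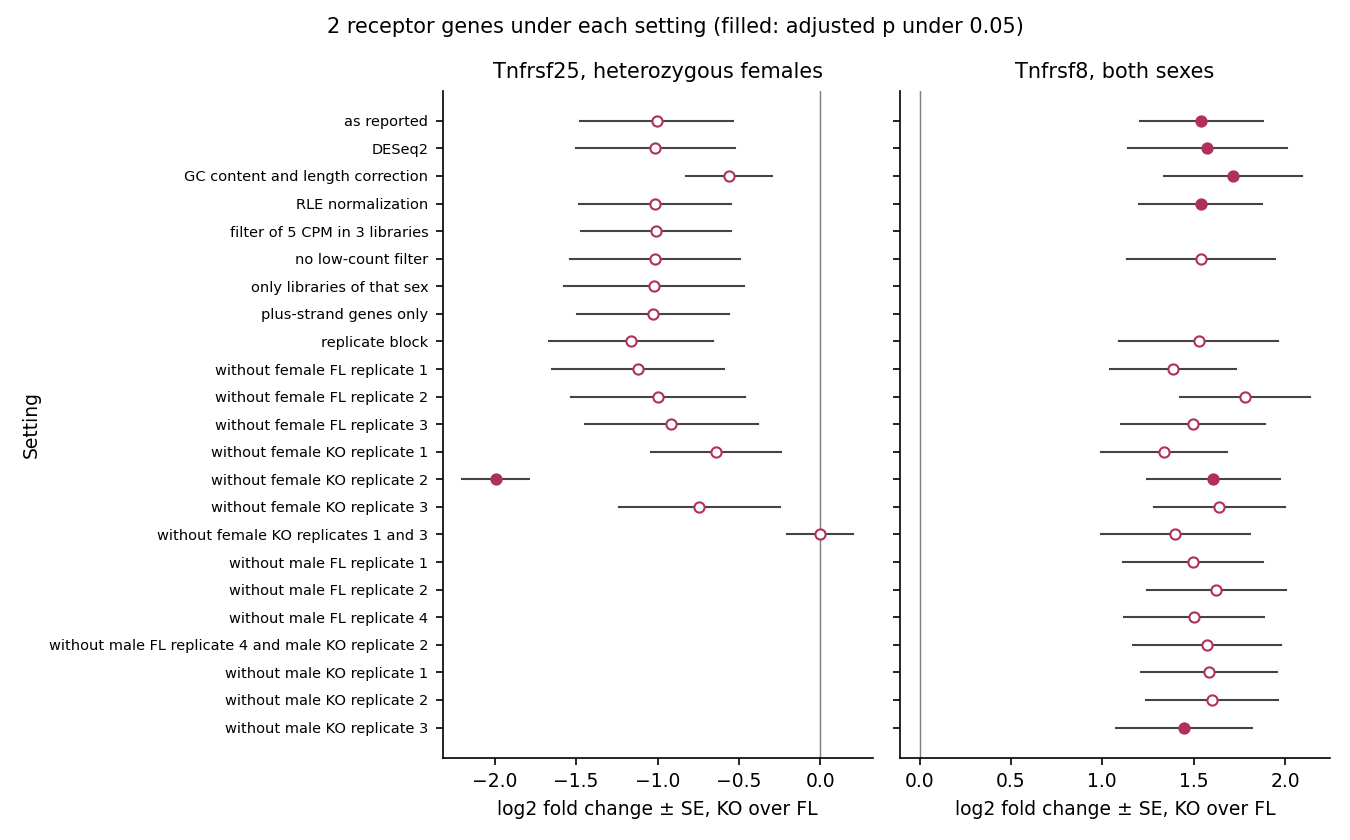
KO minus FL log2 fold change with its SE (x axes) for Tnfrsf25 in heterozygous females, left, and Tnfrsf8 over both sexes, right, under each setting or library subset; filled points have an adjusted p under 0.05. Tnfrsf25 moves from -1.99 without female KO replicate 2 to -0.0035 without replicates 1 and 3, whereas Tnfrsf8 stays between 1.34 and 1.78 and its call comes and goes.

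Tnfrsf1b, the TNFR2 gene, and Cd27, which encodes the receptor for CD70, are the other minus-strand genes. Tnfrsf1b was at 11.9, 10.2 and 8.69 CPM in male FL, 13.6, 8.996 and 9.65 in male KO, 9.52, 12.01 and 10.8 in female FL and 4.89, 12.8 and 7.16 in female KO. Female KO libraries 1 and 3 were the lowest of the 12, and KO library 2 was above the female FL range. The female difference was -0.38 ± 0.32 (log2, SE), with an adjusted p of 0.502, and it was -0.83 ± 0.26 without KO library 2, with an adjusted p of 0.0466, and 0.25 ± 0.30 without KO libraries 1 and 3. With the GC content and length correction it was -0.18 ± 0.30. Cd27 had 24, 8 and 13 reads in male FL, 18, 20 and 8 in male KO, 20, 38 and 47 in female FL and 47, 26 and 14 in female KO. The genotypes overlapped in both sexes, and the difference over both was -0.28 ± 0.41, with a 95% interval of -1.19 to 0.64.

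Among the ligands, Tnfsf10 rose in KO. It encodes TRAIL, which signals cell death through Tnfrsf10b, and it lies on the plus strand. It was counted at 113, 109.6 and 89.8 CPM in male FL and at 210.5, 175 and 189.9 in male KO. In females it was counted at 101, 114 and 114 in FL and at 253, 165.5 and 193 in KO. Within both sexes KO lay above FL without overlap, as it did for 3.97% of tested genes. All 6 KO libraries were above all 6 FL libraries, and female KO library 2 was above the FL range too. The difference was 0.88 ± 0.16 (log2, SE) in males, 0.89 ± 0.16 in females and 0.89 ± 0.12 over both sexes, with adjusted p-values of 0.1, 0.0651 and 0.00465. Over both sexes it passed under all 21 alternatives, with values of 0.74 to 0.96 and adjusted p-values of 8.6e-10 to 0.0304.

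The list of ligands held 18 genes, of which 8 were tested. Over both sexes Tnfsf10 alone passed, where 3.31% of all tested genes did. The list median over both sexes was 0.36 (log2), against -0.02 for all genes. Tnfsf4, the OX40 ligand gene, was at 3.17 to 3.57 CPM in male FL, 2.20 to 3.57 in male KO, 1.66 to 3.71 in female FL and 4.504 to 6.10 in female KO. The genotypes overlapped in males and not in females, where they were apart, in either direction, for 25% of tested genes. The Tnfsf4 difference was -0.30 ± 0.30 in males and 0.97 ± 0.30 in females, with adjusted p-values of 0.976 and 0.154. The female minus male difference was 1.27 ± 0.42 (unadjusted p 0.0122, adjusted p 0.892). Without female KO libraries 1 and 3 these were 0.73 ± 0.42 in females and 1.04 ± 0.53 for the female minus male difference. Without female KO library 2 they were 1.08 ± 0.33 (adjusted p 0.0422) and 1.36 ± 0.45 (adjusted p 0.108). Tnfsf9, the CD137 ligand gene, was at 6.27 to 17.5 CPM (-0.02 ± 0.15 over both sexes), and Tnfsf8, the CD30 ligand gene on the minus strand, at 0.456 to 1.72 (0.39 ± 0.34). Neither these nor Tnfsf18, the GITR ligand gene, at 0 to 1.62 CPM, passed. Ltb, which encodes lymphotoxin beta and was picked after its values had been seen, ranged from 46.4 to 2769 CPM. It was counted at 1794, 2314 and 1497 CPM in male FL, 862, 918 and 2769 in male KO, 381, 927 and 974 in female FL and 46.4, 652 and 61.5 in female KO. Its lowest values were in female KO libraries 1 and 3. The Ltb difference over both sexes was -0.94 ± 0.63, with an adjusted p of 0.411, and -0.27 ± 0.44 without those 2 libraries. Without female KO library 2 it was -2.04 ± 0.39 (adjusted p 0.00602), in a fit where 14.3% of all tested genes passed as lower.

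Of 19 further TNF receptor genes 6 were tested, none passed, and the median was 0.26 (log2) over both sexes. Tnfrsf10b, the TRAIL receptor gene, had the smallest p of these, with 3.93 to 8.27 CPM and a difference of 0.56 ± 0.19 (adjusted p 0.133). It was 0.38 ± 0.23 without female KO libraries 1 and 3, and 0.63 ± 0.19 without female KO library 2 (adjusted p 0.0379). Tnfrsf13b, which encodes TACI and was picked after its values had been seen, was at 160 to 287 CPM in female FL and at 55.1, 287 and 68.5 in female KO libraries 1, 2 and 3. This was the same order of female KO libraries as for Tnfrsf25. The female difference of Tnfrsf13b was -0.81 ± 0.52 with all libraries and 0.26 ± 0.29 without KO libraries 1 and 3. Without KO library 2 it was -1.94 ± 0.23 (adjusted p 7.2e-04), in a fit where 16.5% of all tested genes passed as lower in females. Tnfrsf13c, Ngfr, Eda2r and Edar had no read in any library, all of them on the minus strand.

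Of 23 genes of receptor-proximal signalling, such as the TRAF adaptors, 18 were tested and none passed the test, with a median of -0.09 (log2) over both sexes. Traf6, an adaptor that links receptors to NF-kB kinases, had the smallest p, at -0.75 ± 0.28 with an adjusted p of 0.174. It was at 160 to 297 CPM in female FL and at 76.4, 188 and 73.3 in female KO. The Traf6 difference over both sexes was -0.39 ± 0.26 without KO libraries 1 and 3, and -1.04 ± 0.21 without KO library 2 (adjusted p 0.00822). Traf5, a minus-strand gene, had the smallest p of the list in females (-1.30 ± 0.43, adjusted p 0.179), and was at -0.45 ± 0.44 without these libraries. Casp8, the protease that death domain receptors activate, was at 522.5 to 691 CPM (-0.18 ± 0.08, adjusted p 0.255). Cflar, its inhibitor, was at 302 to 411.5 CPM (0.03 ± 0.08, adjusted p 0.855).

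Of 17 NF-kB genes 14 were tested and none passed. Their median was 0.05 (log2) in males, -0.78 in females and -0.16 over both sexes, against 0.01, -0.02 and -0.02 for all tested genes. Without female KO libraries 1 and 3 the female median was -0.15, over 16 tested genes, and it was -0.37 with the GC content and length correction. Without female KO library 2 the female median was -1.61, over 15 tested genes. Of these 6 passed, where 23.7% of all tested genes did. Map3k14, a minus-strand gene of under 1 CPM that encodes a kinase of the noncanonical pathway, had the smallest p in males (1.56 ± 0.47, adjusted p 0.316), and its female difference was -1.63 ± 0.45 (adjusted p 0.13). Over both sexes Rel, which encodes the subunit c-Rel, had the smallest p, at -0.87 ± 0.22 with an adjusted p of 0.0648. But it is a minus-strand gene with 14 to 64 reads, and it was at -0.55 ± 0.21 without female KO libraries 1 and 3. Without female KO library 2 it was at -1.09 ± 0.18 (adjusted p 0.00344). Nfkb2, a subunit gene of the noncanonical pathway that was picked after its values had been seen, was at 168 to 371 CPM in female FL and at 31.6, 268 and 40.6 in female KO. Rela was at 335 to 437 CPM in the 12 libraries, with a difference of -0.07 ± 0.07. The lowest values of Nfkb2 were in female KO libraries 1 and 3. Its female difference was -1.37 ± 0.77 with all libraries and -0.13 ± 0.68 without KO libraries 1 and 3. Without KO library 2 it was -3.01 ± 0.59 (adjusted p 0.00613), in a fit where 16.5% of all tested genes passed as lower in females.

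**Figure D5:**
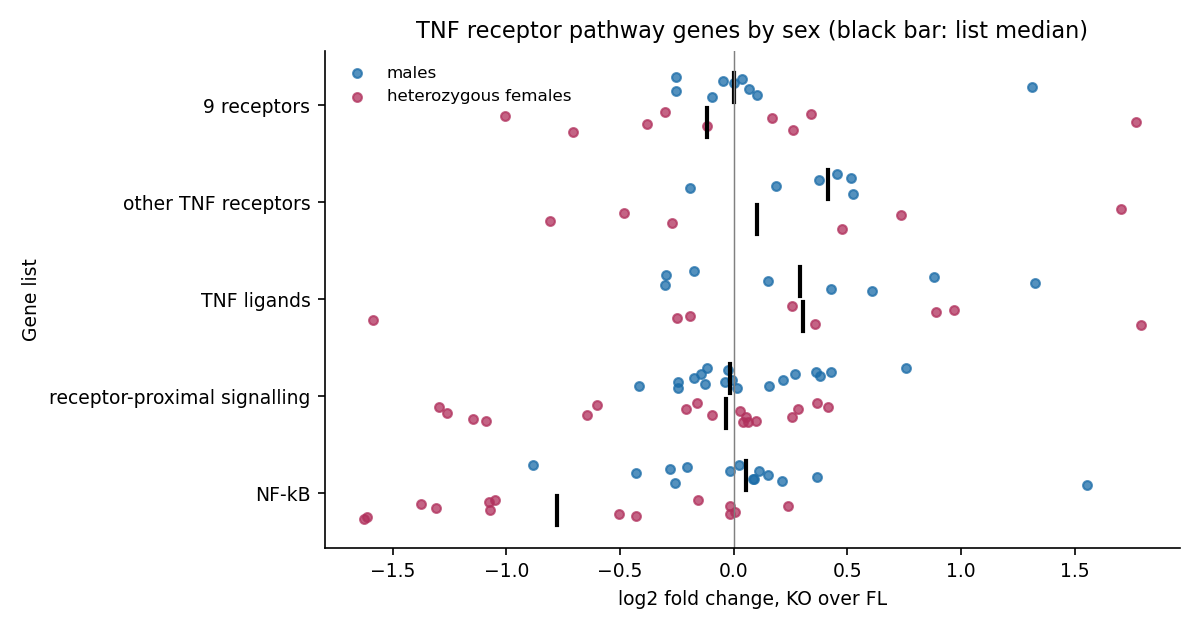
KO over FL log2 fold change (x axis) of each tested gene in the 9 receptors and in 4 lists of pathway genes, in males and in heterozygous females; black bars are list medians. The NF-kB median is 0.05 in males and -0.78 in females, and the other 4 medians lie between -0.12 and 0.42.

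Of the 8 genes that define Treg and T cells, Ctla4 alone passed over both sexes, where 3.31% of all tested genes did. It encodes the inhibitory receptor that competes with CD28. Ctla4 was at 704 to 860 CPM in male FL, 1001 to 1325 in male KO, 895 to 1027 in female FL and 1168 to 1759.5 in female KO. KO was thus above FL without overlap in both sexes, as it was for 3.97% of tested genes. The difference was 0.50 ± 0.12 (log2, SE), with an adjusted p of 0.0457, and the call was lost in 15 of 21 alternatives while the difference stayed between 0.37 and 0.57.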

How the data were processed

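The deposited values are raw counts of reads per gene symbol, made by the authors on mm9. The submitters' processing notes list HTSeq 0.6.1p1, STAR in versions 2.3.0e and 2.5.2b, and CASAVA. Libraries came from total RNA with a stranded kit, per the labels' protocols. The annotation and strand setting are not given in the sources used here. The 5 HTSeq summary entries, 64.28 to 70.54% of reads, were left out. Strand, exon length and GC content came from GENCODE M21, matched by symbol for 54510 of 55453 genes.

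Genes were filtered with filterByExpr, scaled by TMM and fitted with edgeR 4.0.16 (R 4.3.3) by quasi-likelihood, with 1 mean per group over 12 libraries. Contrasts were KO minus FL within males, within females, over both, and their difference. P-values were adjusted by Benjamini-Hochberg over all tested genes at 0.05. CPM use TMM-adjusted library sizes, and log2 CPM a prior count of 2. Alternatives were RLE, DESeq2 1.42.0, no filter, 5 CPM in 3 libraries, a replicate block, 1 sex only, plus-strand genes, a GC content and length correction, and libraries left out. Leaving out male FL 4 with male KO 2 was added after the data were seen.

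The receptor genes and gene lists were chosen with earlier results of these data known. Named were all 9 receptors and, per list and comparison, up to 4 called genes or the one of smallest p, plus the 3 genes nearest a called receptor; a list gene of smallest p is not reported here. Marker lists are given mainly by their summed levels. The receptors' ligands, Casp8, Cflar and Rela were added for their roles after values were seen, and other additions are marked in the text. Motifs were searched in RefSeq GRCm38.p6 windows. No 2 libraries of a group agreed within counting noise.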

Additional observations from a re-analysis of the deposited data

How the results depend on the processing

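Sizes of called sets moved most. In males 3 genes passed, 26 without the low-count filter, 237 by DESeq2, 0 with the replicate block, with males alone, with plus-strand genes, with the GC content and length correction or without male FL 4 and male KO 2, and 0 to 35 with 1 library left out (35 without male FL replicate 4). In females 25 passed, 94 without the filter, 50 at 5 CPM, 16 with the GC content and length correction, 703 by DESeq2, 0 with the block, with females alone or without KO 1 and 3, and 0 to 3089 with 1 library left out (3089 without KO replicate 2). Over both sexes 411 passed, 1129 by DESeq2, 44 without female KO 1 and 3, 98 to 2940 with 1 library left out. Of the receptor genes, the 1 called over both sexes became 0 without the filter, at 5 CPM, with the block, with plus-strand genes, without female KO 1 and 3 and without male FL 4 and male KO 2, and 0 to 2 with 1 library left out. With 1 library left out, 0 to 4 receptor genes were called in females, 0 in males and 0 to 1 in the female minus male difference, where 0 to 1108 genes passed. Fits with 1 female KO library assume that it varies like the other groups. The cause of these shifts was not tested.

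Whether the replicate numbers pair the libraries could not be settled. Deviations of same-numbered libraries of a sex correlated from -0.614 to 0.442 over 5 pairs, with a median of 0.189. Those of different-numbered libraries of a sex correlated from -0.48 to 0.673 over 13 pairs, with a median of -0.136. With the replicate block 0 genes passed in males, 0 in females and 209 over both sexes, none of them a receptor gene, and Tnfrsf8 was at 1.53 (adjusted p 0.13).

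Signs changed for differences near 0. In males Tnfrsf18 was at -0.0016 with RLE and DESeq2, -0.0259 at 5 CPM, -0.0529 with the block and -0.0177 with plus-strand genes. Male Tnfrsf9 was at -0.1241 with the block and -0.0007 with the GC correction, male Tnfrsf1a at 0.2231 with the block, and male Tnfrsf25 at 0.0300 with the block and 0.0576 with the GC correction. With libraries left out, male values ran from -0.0858 to 0.1071 for Tnfrsf18, -0.0754 to 0.1817 for Tnfrsf9, -0.1387 to 0.1865 for Tnfrsf1b, -0.3352 to 0.2656 for Tnfrsf1a, -0.1078 to 0.1021 for Tnfrsf25 and -0.7310 to 0.2239 for Cd27. Female Cd27 ran from -0.7129 to 0.0019, and Tnfrsf18 over both sexes from -0.0231 to 0.1414, with -0.0007 without female KO 1. Without female KO 1 and 3, Tnfrsf18 was at -0.0449 in females, Tnfrsf1b at 0.2486 in females and 0.1578 over both, Tnfrsf1a at 0.0333 in females, and the Tnfrsf25 difference between sexes at 0.0491. The cause was not tested.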
